A study of Homo sapiens with 3 samples.

Results

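The 10 genes TAL1, LMO2, GFI1B, NFE2, RUNX1, MYB, GATA2, ETV6, BCL11A and IKZF1 encode nuclear regulators of blood cell lineages. Their capture targets were taken as every interval of the deposited probe design that lay fully inside a fixed hg19 window around each gene. That rule gave 137 targets of 377858 in the whole list. The study captured RNA from K562, an erythromyeloblastoid leukaemia cell line, in 3 libraries described as biological replicates and labelled with 1 condition, in order to map branchpoint nucleotides. Per the labels' protocols, the design aimed at the 100 nt at each end of annotated introns and left out exons and parts highly transcribed in K562. The list is common to the 3 libraries and holds no value per library, so it shows what was targeted and not how much RNA was captured. Each target carries a deposited score, a whole number from 0 to 125 over the whole list. The labels do not say what the score measures, and whether it reflects transcription in K562 was not tested. No group, treatment or replicate stands behind a score, so no test was possible and all comparisons are descriptions.

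During splicing, the 5′ end of an intron is joined to a branchpoint base near its 3′ end, and a read across that junction reveals the branchpoint. Blood cell identity is set by small circuits of transcription factors. In red cell and platelet precursors, TAL1 and the bridging protein LMO2 work with GATA factors in 1 complex, GFI1B represses genes of other programmes, and NFE2 activates late erythroid and megakaryocytic genes. RUNX1, MYB, GATA2 and ETV6 act earlier, in stem and progenitor cells. IKZF1 directs lymphoid development, and BCL11A acts in B cells and silences fetal globin in adult red cells.

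Most targets (121 of 137) matched an intron end of their gene and so bordered an exon. The 7 coding exons shown lie exactly between a pair of targets and make clear what was left out of the capture. Each is the shortest wholly coding exon of at least 30 nt in its gene whose length plus 1 nt equals the gap between its targets. Sequences were cut from GENCODE release 29 transcripts on GRCh38. The capitals mark the first base and the last 3 bases of the exon, which adjoin the 3′ and 5′ splice sites. TAL1, LMO2 and NFE2 had no such exon.
GATA2 exon 5 of 7, chr3:128483860-128484005, minus strand: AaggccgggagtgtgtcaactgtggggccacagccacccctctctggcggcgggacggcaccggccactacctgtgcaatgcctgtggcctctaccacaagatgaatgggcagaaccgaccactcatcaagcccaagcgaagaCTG
GFI1B exon 7 of 11, chr9:132987282-132987419, plus strand: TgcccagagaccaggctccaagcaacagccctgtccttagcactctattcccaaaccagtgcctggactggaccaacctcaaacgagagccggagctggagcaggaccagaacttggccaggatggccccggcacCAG
MYB exon 3 of 17, chr6:135187834-135187905, plus strand: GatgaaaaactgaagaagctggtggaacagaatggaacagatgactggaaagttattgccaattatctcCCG
RUNX1 exon 2 of 8, chr21:34892925-34892963, minus strand: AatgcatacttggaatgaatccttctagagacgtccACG
ETV6 exon 7 of 8, chr12:11885926-11886026, plus strand: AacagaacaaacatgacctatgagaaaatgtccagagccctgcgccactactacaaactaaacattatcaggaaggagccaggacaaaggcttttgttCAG
IKZF1 exon 6 of 8, chr7:50387345-50387470, plus strand: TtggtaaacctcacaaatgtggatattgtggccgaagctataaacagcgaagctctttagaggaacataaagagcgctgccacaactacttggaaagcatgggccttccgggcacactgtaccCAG
BCL11A exon 3 of 5, chr2:60468732-60468833, minus strand: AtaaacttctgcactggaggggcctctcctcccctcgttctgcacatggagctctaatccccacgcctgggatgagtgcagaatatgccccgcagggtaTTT

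The GATA2 exon encodes a zinc finger of the DNA-binding region, the ETV6 exon encodes part of its ETS DNA-binding domain, and the IKZF1 exon encodes a zinc finger. The RUNX1 exon belongs to the form transcribed from the distal promoter. The scores of the targets beside these exons varied widely from exon to exon. Upstream and downstream of the GATA2 exon the scores were 55 and 99. At the GFI1B exon they were 90 and 9, and at the MYB exon 20 and 5. The IKZF1 exon lay between scores of 3 and 7, the RUNX1 exon between 3 and 0, and the ETV6 exon between 1 and 1. Both targets around the BCL11A exon scored 0.

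As a group, the 10 genes had more scored targets than the list. A score above 0 was carried by 110 of 137 targets (80.3%), against a background of 52.8% over all targets. A score of 19 or more, the level that marks roughly the top 10% of the list, was reached by 52 of 137 targets (38.0%), against 10.4% of all targets. The median score was 13 and the mean 20.6, against 1 and 6.80 over the whole list. The genes did not share this pattern evenly. All targets scored above 0 in 6 genes (TAL1, LMO2, NFE2, MYB, GATA2 and IKZF1), and none did in BCL11A. Targets of 1 gene come from 1 locus and are not independent of each other.

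**Figure D1:**
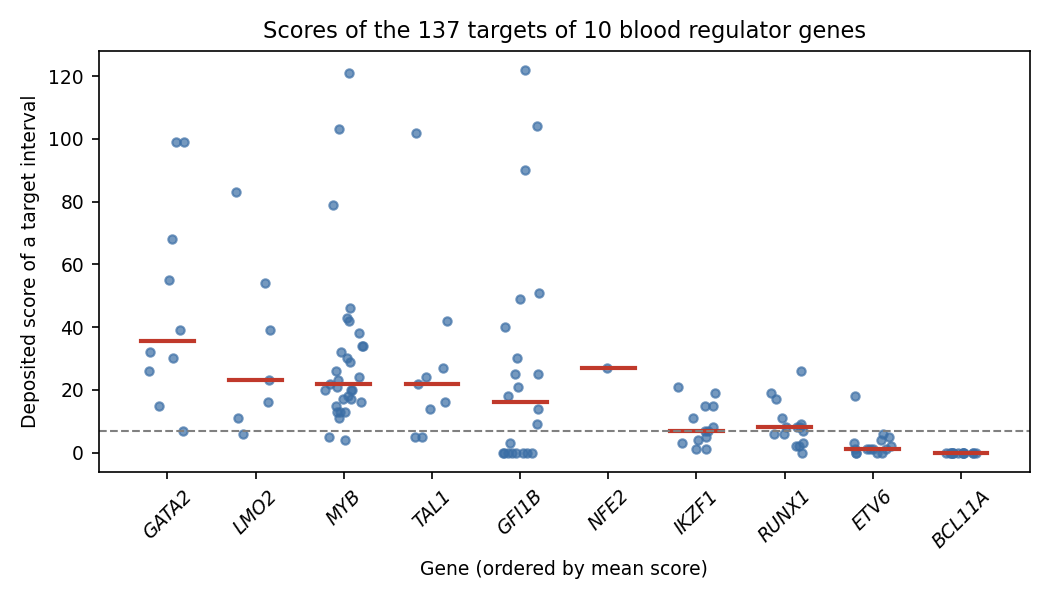
Deposited score of every target (points, 137 in all) for the 10 genes, ordered by mean score. Red lines are gene medians and the dashed line is the mean of the whole list (6.80). GATA2 lies highest with a median of 35.5, and all 14 BCL11A targets lie at 0.

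GATA2, a zinc finger factor of blood stem and progenitor cells, had the highest mean of the 10 genes. From the 5′ to the 3′ end of the gene, its 10 targets scored 30, 15, 32, 26, 39, 7, 68, 99, 55 and 99. The scores were highest at the 3′ side, where both targets of 99 were 5′ ends of introns, at chromosome 3 from 128204469 to 128204568 and from 128202602 to 128202701. The mean was 47.0 with an SD between targets of 32.6, and 8 of the 10 targets reached 19.

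LMO2, the LIM-domain bridge between TAL1 and GATA factors, followed with a mean of 33.1. Its 7 targets scored 16, 83, 23, 11, 54, 6 and 39 from 5′ to 3′. The highest was the 3′ end of the first intron of the reference transcript, at chromosome 11 from 33903434 to 33903533. Next to it lay the narrowest target of the 10 genes, 30 nt wide, and another LMO2 target was 31 nt wide.

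TAL1, a basic helix-loop-helix factor required for blood formation, had a mean of 28.6. Its 9 targets scored 102, 16, 27, 5, 42, 5, 24, 22 and 14 from 5′ to 3′. A single target stood above the rest: the 5′ end of the first intron, at chromosome 1 from 47697228 to 47697327, scored 102, and the next highest was 42. The targets that scored 16 and 27 did not match an intron end of TAL1 but matched AL135960.1, another annotated gene at this place. Only 4 of the 9 TAL1 targets matched an intron end of TAL1 itself.

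NFE2, the bZIP subunit of the NF-E2 factor, had 1 target. It lay at chromosome 12 from 54693830 to 54693929, scored 27 and matched the 5′ end of the second of 3 introns. No other end of these introns was matched by a target. The running numbers of the list missed 2 values on each side of it, over distances of 15.8 kb to the previous target and 25.04 kb to the next. Whether the missing numbers belonged to NFE2 was not tested.

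MYB, a regulator of progenitor proliferation, had the most targets of the 10 genes, 31 over 36.3 kb. Its scores ran from 4 to 121 around a median of 22 (mean 30.6), and 20 targets reached 19. The 3 highest were 121 at the 3′-most target (chromosome 6 from 135538899 to 135538998), 103 at the 3′ end of intron 5 (135513362 to 135513461) and 79 at the target from 135525089 to 135525187. The last 2 targets along the gene were thus among its 3 highest. A pair of MYB targets lay only 3 nt apart, from 135523986 to 135524085 and from 135524089 to 135524188. That gap equals an annotated exon of 2 nt plus 1 nt, and the targets scored 21 and 13.

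GFI1B, a zinc finger repressor of erythroid and megakaryocytic cells, showed a step within the gene. The longest annotated transcript begins far upstream and has 10 introns, while 3 of the 5 transcripts in GENCODE's basic set begin in its exon 5. Upstream of exon 5, the 10 targets had a median score of 0 and a highest score of 18, and 2 scored above 0. From exon 5 on, all 12 targets scored above 0, from 9 to 122 with a median of 35. The scores on the 2 sides overlapped only through the target that borders exon 5 on its 5′ side: it scored 18, and the others upstream scored at most 3. The 3 highest scores were 122 at the 3′ end of intron 9 (chromosome 9 from 135865029 to 135865128), 104 at the 5′ end of intron 5 (135854230 to 135854329) and 90 at the 3′ end of intron 6 (135862569 to 135862668). The step was noticed in the scores, and the cut was set at the first target that scored 19 or more, which fell at exon 5. An upstream maximum under 19 was therefore fixed by the cut, and the split is a description only.

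RUNX1, a DNA-binding subunit of core binding factor, has a distal and a proximal promoter. Its 15 targets ran from 0 to 26 (median 8, mean 8.80), well under the genes above. The 3 targets at introns 1 and 2 of the distal form scored 2, 3 and 0 from 5′ to 3′. The next target, a 5′ end of an intron of another RUNX1 transcript, scored 19 (chromosome 21 from 36261873 to 36261972). The remaining 11 scored from 2 to 26, and the second highest of these was 17 (36193994 to 36194093). In the basic set, 3 of 5 RUNX1 transcripts begin within intron 2 of the distal form. The highest score, 26, was at the 3′ end of the last intron, from 36164908 to 36165007.

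IKZF1, the lymphoid zinc finger factor Ikaros, resembled RUNX1 in level, with a mean of 9.00 and a median of 7 over 13 targets. Every target scored above 0, and the range was 1 to 21. The lowest values were the 2 targets nearest the 5′ end, both at 1. The highest were both ends of the last intron, at 19 (chromosome 7 from 50459563 to 50459662) and 21 (50467516 to 50467615). The third highest was 15, at 50450138 to 50450237 and again at 50450407 to 50450506.

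ETV6, an ETS family repressor needed for blood stem cells, scored low with the exception of 1 target. The 5′ end of its first intron scored 18 (chromosome 12 from 11803096 to 11803195), and the other 14 targets scored from 0 to 6. The next highest were 6 at the 3′ end of intron 3 (12006261 to 12006360) and 5 at the 3′ end of intron 4 (12022258 to 12022357). The median was 1, as over the whole list, the mean was 2.87 against 6.80 over the list, and no target reached 19. A score above 0 was nevertheless carried by 11 of the 15 targets (73.3%), against 52.8% over all targets.

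BCL11A was listed at 0 in all 14 targets, from chromosome 2 position 60679802 to 60780349. Of these, 10 matched intron ends of BCL11A and 4 matched AC009970.1, another annotated gene inside the window. On chromosome 2 as a whole, 48.3% of targets scored above 0 and the mean was 3.57.

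**Figure D2:**
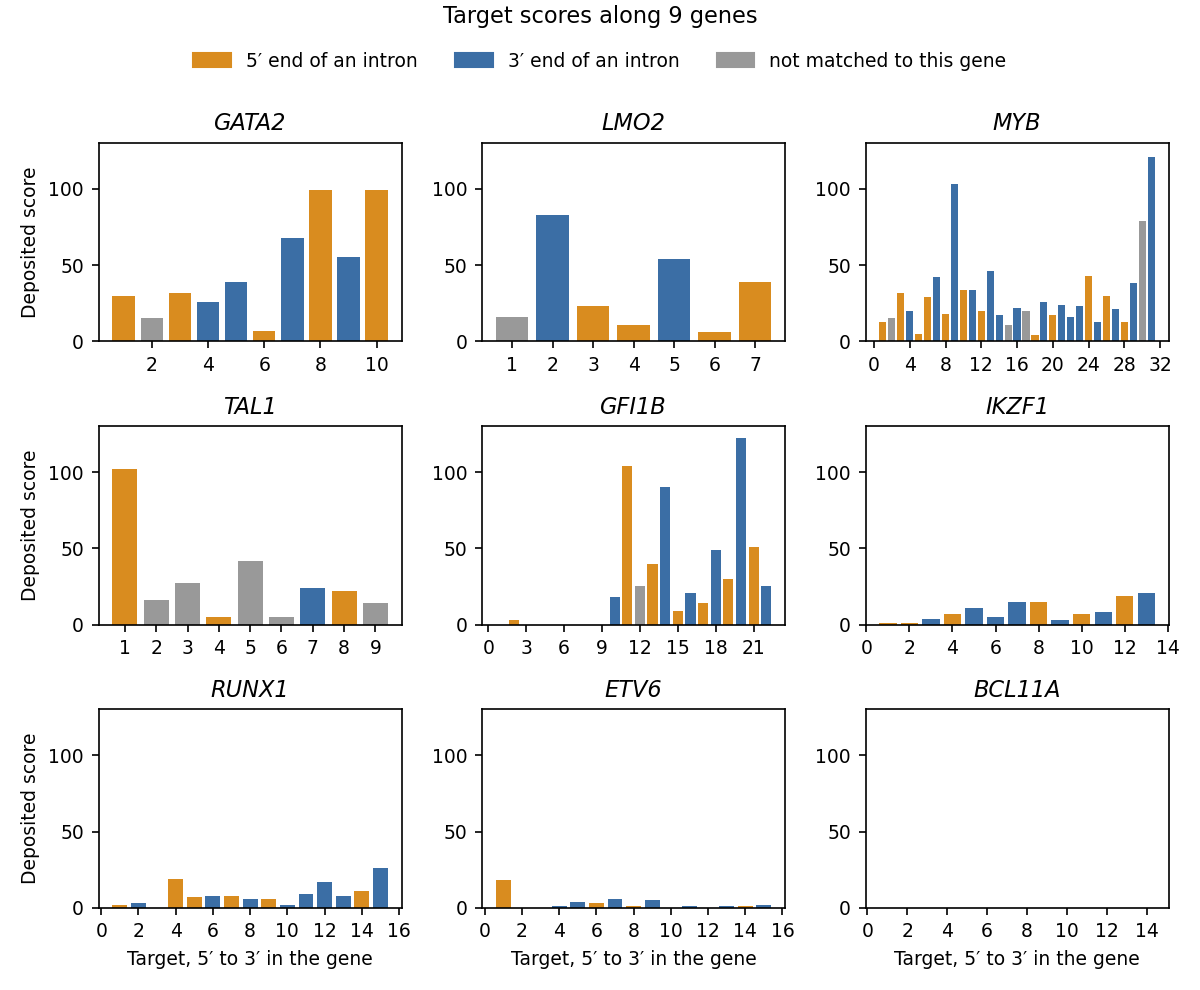
Deposited score of each target in 5′ to 3′ order along 9 genes (NFE2 has 1 target and is not drawn), on a common axis. Colours give the matched intron end. In GFI1B the first 10 targets reach at most 18 and the last 12 range from 9 to 122, and BCL11A has no bar because all targets score 0.

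The surroundings of the genes did not have the same level. Targets within 1 Mb on either side of a window were taken as its flanks. The gene mean was above the flank mean in 8 of 10 genes. This was not particular to them. Of the other regulators described further on, GATA1, KLF1, LDB1, TCF3, LYL1, CBFB and SPI1 also lay above their flanks. ZFPM1, FLI1, ERG, GFI1, PAX5, EBF1, GATA3 and BCL11B lay below theirs. GATA2 exceeded its flanks by 33.5 (47.0 against 13.5), MYB by 25.2 (30.6 against 5.39), TAL1 by 23.7 (28.6 against 4.86), LMO2 by 23.4 (33.1 against 9.79) and GFI1B by 20.8 (27.3 against 6.55). For NFE2 the difference was 13.5 (27.0 against 13.5), from a single target. IKZF1 lay 6.48 above its flanks (9.00 against 2.52), and only 27.0% of the 163 flanking targets scored above 0 while all 13 IKZF1 targets did. RUNX1 lay 3.98 above (8.80 against 4.82), a difference that came to 0.52 with flanks of 2 Mb. BCL11A was the reverse case, since 80.3% of 314 flanking targets scored above 0 with a mean of 5.93 while the gene had none. With flanks of 0.5 Mb, 70.4% of 108 flanking targets scored above 0, but their mean was only 1.87 and their highest score 10. ETV6 had 2.87 against 4.43 in its flanks, and the sign of this difference changed with the flank width (1.32 with 0.5 Mb and 0.13 with 2 Mb, gene minus flank).

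**Figure D3:**
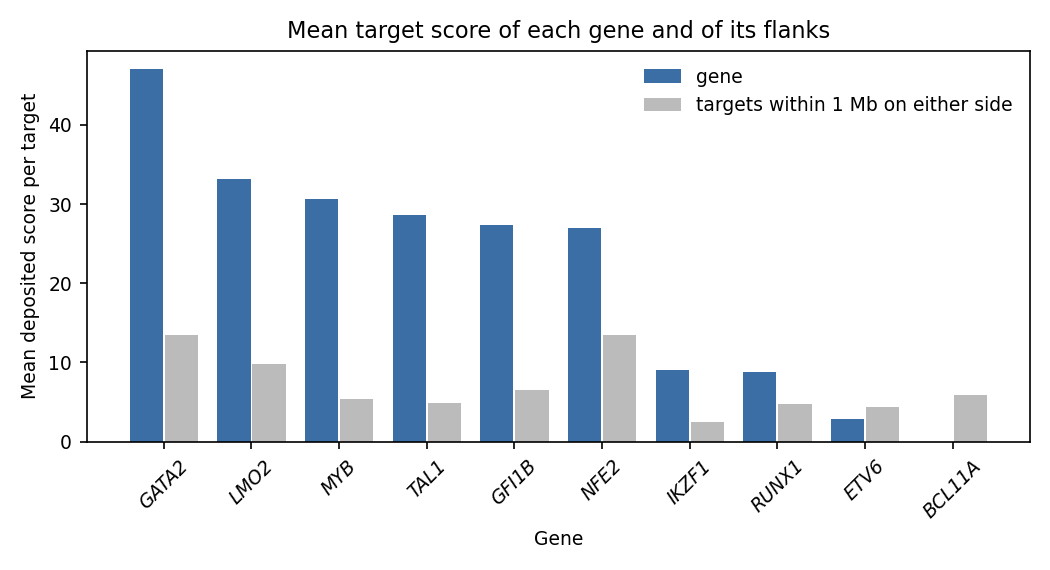
Mean deposited score per target for each of the 10 genes (blue) and for all targets within 1 Mb on either side of its window (grey). Bars carry no error because the list is a census without replicates. GATA2 has 47.0 against 13.5, and BCL11A has 0 against 5.93.

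Matching target edges to annotated introns gave most targets an identity. An intron end of the gene itself was matched by 121 of the 137 targets, 7 matched only another gene (AL135960.1, MYB-AS1 or AC009970.1), and 9 matched none in release 29. Over the 10 reference transcripts, 41 of 71 introns had targets at both ends, 22 at 1 end and 8 at neither. ETV6 had both ends of 6 of its 7 introns, GFI1B 9 of 10, MYB 9 of 16, and TAL1 0 of 4. Of 68 gaps of up to 1000 nt between neighbouring targets, 42 equalled the length of an exon of the same gene plus 1 nt, against 6 that equalled an exon length and 4 that equalled it plus 2 nt.

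Over the genes and the 100 kb around them, the extra base was best placed on the 5′ side of the intron. When the first intron base was taken as left out at the 5′ end, 423 edges of the 473 targets in the 10 genes and their surroundings of 100 kb coincided with intron ends at a single distance per gene. With the base left out at the 3′ end 286 edges coincided, with the base left out at the left end regardless of strand 294, and with none left out 230. The first arrangement gave the most matches around 9 of the 10 genes and was level with others around 1. Because the distance was free, introns of 1 strand alone match equally well with the base left out at the 5′ or the 3′ end. The choice between these ends therefore rests on neighbouring introns of the opposite strand, and the introns of a single gene cannot make it. By this match, the first intron base, the one that the branchpoint is joined to, was outside the listed targets. That reading rests on release 29, on distances around each gene and on a placement taken to be the same on both strands.

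Scores often differed between the ends of 1 intron. Of the 41 introns of the reference transcripts with both ends targeted, the 3′ end scored higher in 24, the 5′ end in 9, and the scores were equal in 8, of which 4 were BCL11A introns at 0. Among the other 15 regulator genes described further on, the 3′ end was higher in 23 of 75 such introns, the 5′ end in 14, and 38 were equal. These equal introns scored 0 at both ends, except TCF3 intron 8 and SPI1 intron 1, each with 3 at both ends. An intron at 0 at both ends cannot show a higher end, so the shares of 41 and of 75 introns are not directly comparable. The same share was not worked out for the whole list. The median of the 5′ end score minus the 3′ end score was -1 over the 41 introns, a small difference. Large differences also occurred and went both ways. In GFI1B intron 9 the 5′ end scored 30 and the 3′ end 122, and in MYB intron 5 they scored 18 and 103. GATA2 intron 3 had 7 at its 5′ end and 68 at its 3′ end, but intron 4 had 99 and 55. In ETV6 intron 1 the 5′ end scored 18 and the 3′ end 1, although the 3′ end was higher in 5 of its 6 introns. When alternative introns were counted as well, the 3′ end was higher in 38 of 64 and the 5′ end in 15, but these introns share targets.

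**Figure D4:**
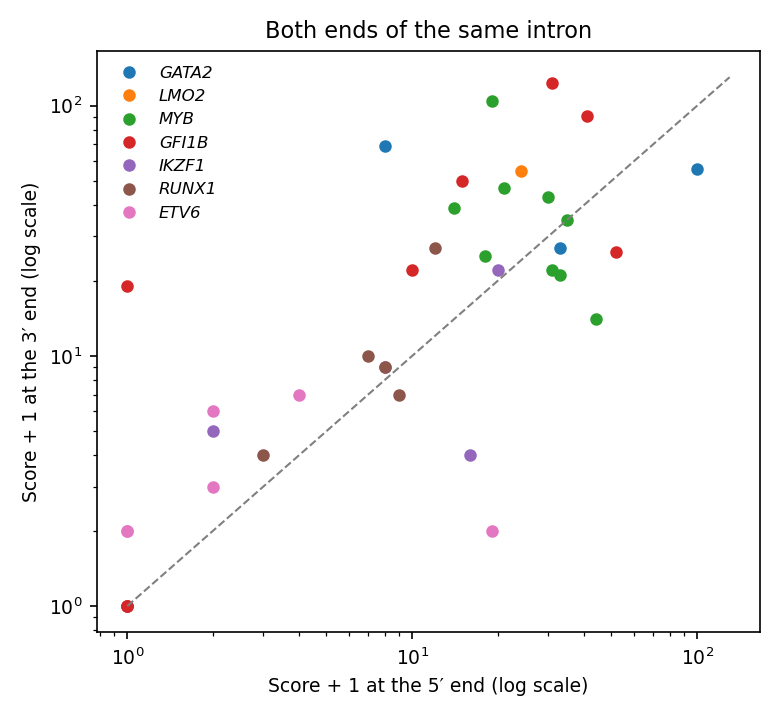
Score plus 1 at the 5′ end against score plus 1 at the 3′ end of the same intron, both on log axes, for the 37 reference introns of 7 genes with both ends targeted (BCL11A, all at 0, is not drawn). Points above the dashed line of equality are the 24 introns with the higher score at the 3′ end, and 9 lie below it. Some points coincide.

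Target width in the 10 genes was mostly the 100 nt of the design. It was exactly 100 nt in 126 of 137 targets (92.0%), against 87.7% of the list. The 10 narrower ones were 2 each in TAL1 (97 and 99 nt) and LMO2 (30 and 31 nt), 3 in MYB (74, 90 and 99 nt) and 1 each in GFI1B (97 nt), GATA2 (84 nt) and IKZF1 (77 nt). The only wider one was a MYB target of 101 nt. Between the first and last target of each gene, the running numbers were complete except for 1 in MYB, between targets that scored 5 and 29, and 1 in GATA2, between targets that scored 39 and 26. Outside these ends, apart from NFE2, 2 numbers were missing before the GATA2 targets by position and 1 before the LMO2 targets. Whether these belonged to the genes was not tested.

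Other blood regulators spanned a wider range of gene means, although their single targets reached 106 at most, against 122 in the 10 genes. A list of 11 further erythroid and myeloid regulators (GATA1, KLF1, ZFPM1, LDB1, TCF3, LYL1, CBFB, SPI1, FLI1, ERG and GFI1) and 4 lymphoid ones (PAX5, EBF1, GATA3 and BCL11B) was read in the same way. The gene mean was above the mean of the whole list in 8 of 10 genes described here, in 8 of the 11 and in none of the 4. The median of the gene means was 27.2, 23.0 and 0.097. The highest of the 15 were KLF1, an erythroid activator, at 85 from 1 target, GATA1, the main erythroid GATA factor, at 67.3 over 6 targets, and LYL1, a paralogue of TAL1, at 64.0 over 4 targets. The lowest were BCL11B, a T cell factor, at 0 over 10 targets, PAX5, a B cell factor, at 0.091 over 22 targets, and FLI1, a megakaryocytic ETS factor, at 0.10 over 20 targets.

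Members of 1 protein family stood far apart in 3 families, as the bar plot of the 25 regulators shows. GATA1 and GATA2 had means of 67.3 and 47.0, and GATA3, the T cell member, had 0.20 with 2 of 10 targets above 0. GFI1B had 27.3 and its paralogue GFI1 had 2.46 over 13 targets. Among ETS factors, SPI1 had 14.3, ETV6 2.87, ERG 0.16 and FLI1 0.10. BCL11A and its paralogue BCL11B were both at 0. By mean score, the gene nearest to MYB was TCF3 (30.6 and 30.7), the gene nearest to GATA2 was LDB1 (47.0 and 44.8), and the gene nearest to ETV6 was GFI1 (2.87 and 2.46). RUNX1 and IKZF1 were nearest to each other, as were GFI1B and NFE2, while TAL1 was nearest to GFI1B and LMO2 to TCF3.

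**Figure D5:**
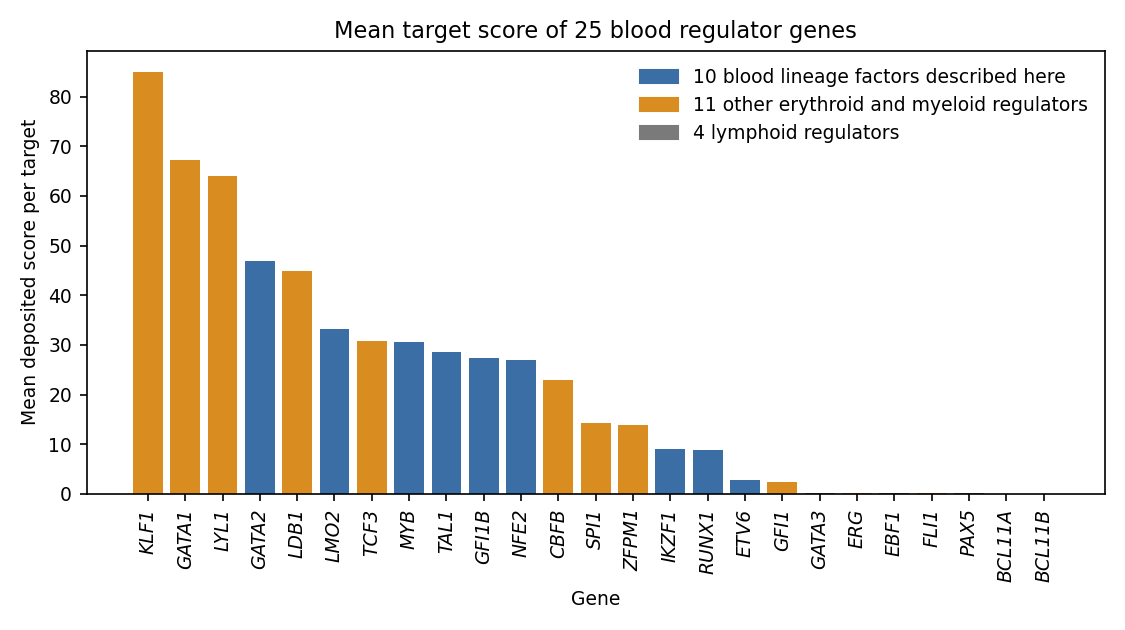
Mean deposited score per target of 25 blood regulator genes, ordered from high to low: the 10 genes described here in blue, 11 other erythroid and myeloid regulators in orange and 4 lymphoid regulators in grey. The means range from 85 for KLF1 (1 target) to 0 for BCL11A and BCL11B, and the 4 lymphoid genes lie at or under 0.20.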

How the data were processed

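The authors deposited 1 list of capture target intervals with a whole-number score each; neither the labels nor the file explain this score, so the score was not treated as a count. Per the submitters' processing notes, the build is hg19, and the design used GENCODE release 12 per the labels' protocols. Read depth of the 3 libraries was not analysed here. Positions are hg19 and 1-based unless GRCh38 is named. Intervals fully inside each window were taken. Target edges were matched to intron ends of GENCODE release 29 (GRCh38) by distances within each gene and 100 kb around it, without converting coordinates; a second distance was allowed from 3 edges on, and was used for IKZF1 and ERG. The matching was tested on simulated targets. The reference transcript of a gene is the one with most matched ends. Windows of the 15 other genes were written from general knowledge and checked by this match, as was NFE2. The members, gene lists and rules were chosen with earlier results of these data known. Named genes were all 10 members, every target in genes of at most 12 targets, otherwise the 3 highest, and the 3 highest and 3 lowest of the other genes. Python 3.11.15, numpy 2.4.6, pandas 2.3.3, scipy 1.17.1 and matplotlib 3.10.9 were used.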

Additional observations from a re-analysis of the deposited data

How the results depend on the processing

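A list without libraries has no replicate error, so fixed limits were used instead. Shares were set against their 95% exact binomial interval and means against the SD between the 10 gene means (15.3). Counts were set against a factor of 1.5, and differences from flanks against the SD between flanking targets. The binomial interval treats targets as independent, which targets of 1 gene are not, so it is a yardstick only and measures no error. The share of targets scoring above 0 (80.3%) was 89.4% without BCL11A and 88.6% without the genes on chromosomes 1 and 2. It was 67.9% when 5 was the lowest score counted, a level at which the share of the whole list was not worked out. The share of targets of 100 nt (92.0%) was 96.4% with a range of 90 to 110 nt, again without a share of the whole list beside it. Gaps equal to an exon length or to it plus 2 nt numbered 6 and 4, against 42 with 1 nt. Introns with the higher score at the 5′ end numbered 15 over all paired introns and 9 in the reference transcripts, an alternative chosen after seeing the data that holds fewer introns. The difference between ETV6 and its flanks was -1.56, and 1.32 and 0.13 with flanks of 0.5 and 2 Mb, and the cause was not tested. The other 33 alternatives for shares, means and counts and 18 for single genes against their flanks stayed within these limits. Among them, leaving out MYB gave a share above 0 of 74.5% and a mean of 17.7, the lowest with any 1 gene left out. The limits are wide, so staying within them does not show that a value was stable. The mean of the 10 genes (20.6) and that of the whole list (6.80) themselves lie closer together than 15.3. For RUNX1, a difference from its flanks of 3.98 counted as unchanged at 0.52 with flanks of 2 Mb. No paired analysis was possible because all 3 libraries belong to 1 group and share a single design, and leaving out replicates could not be done either.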
